A study of Mus musculus with 28 samples.

Results

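The splicing factor and hnRNP genes are the genes whose symbols begin with Srsf, Snrp, Sf3a, Sf3b or Hnrnp followed by a member letter or number. They comprise 53 of the 53801 features in the expression table, and were chosen by name and not by their values. All 53 match a gene record of GENCODE release M21, and 52 of them are annotated as protein-coding. The exception is *Snrpert*, annotated as a processed pseudogene, which was listed at 0 in 26 of 27 libraries and at 4.18 TPM in 1 library of treated spleen.

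The genes were measured by bulk RNA-seq of Treg cells from mice bearing CT2A tumors, a murine glioblastoma (GBM) line grown in the brain. Treg cells are CD4 T cells that restrain other immune cells, and they were sorted from spleen or tumor as TCR+CD4+CD25hi cells with low CD127. Control mice received IgG2a, the isotype control antibody, and treated mice received αPD1 + αGITR, in which αPD1 blocks an inhibitory receptor and αGITR is an agonist of a co-stimulatory receptor. Both regimens comprised 4 doses of 250 μg per mouse, 3 days apart. Libraries of 7 control spleens, 8 treated spleens, 5 control tumors and 7 treated tumors were used. Every mouse carried a tumor, so spleen here is the spleen of a tumor-bearing animal, and no group received αPD1 or αGITR alone.

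Pre-mRNA splicing is carried out by the spliceosome, which assembles on each intron from small nuclear ribonucleoproteins (snRNPs). A ring of Sm proteins forms the core of most spliceosomal snRNPs, U1 and U2 proteins recognize the 5′ splice site and the branch point, and the SF3A and SF3B complexes hold U2 on the branch point. SR proteins bind exons and favor their inclusion, whereas heterogeneous nuclear ribonucleoproteins (hnRNPs) coat nascent transcripts and often favor skipping. Activated T cells switch the splicing of many transcripts, of which CD45 is the classic example.

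All values are TPM, an abundance scaled to transcript length and to the total of each library. That scaling bears on the comparisons between groups. The same 10 features with the highest mean TPM took between 31.9 and 78.3% of a library, and between 7702 and 17460 features exceeded 1 TPM. One control GBM library had the fewest such features (7702) and is called the feature-poor library. Summed macrophage and microglia markers were 4338 TPM in control GBM library 79_a and 1797 TPM in treated GBM library 73_a, against 9.86 to 300.1 TPM in the other 25 libraries, and their part in the results was not tested. The defining T cell and Treg markers were above 0 in every library apart from *Tnfrsf18*, which encodes GITR and was at 0 in treated spleen library 72_b.

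The 53 genes together accounted for a small and variable part of each library. In control spleen they took 0.0763 to 0.599% of all TPM (median 0.240%), and in treated spleen 0.0899 to 0.405% (median 0.287%). In control GBM the 5 libraries held 0.192, 0.246, 0.279, 0.326 and 0.515%. In treated GBM the share was 0.319 to 0.524% (median 0.451%). Treated GBM therefore had the highest median of any group, but its libraries overlapped with each of the other groups. With the 10 largest features taken out of the total, the share was 0.364 to 0.814% in control GBM and 0.7497 to 0.945% in treated GBM. The lowest of these shares, 0.284 to 0.369%, belonged to treated spleen libraries 72_b and 72_c, control spleen library 79_a and the feature-poor control GBM library.

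**Figure D1:**
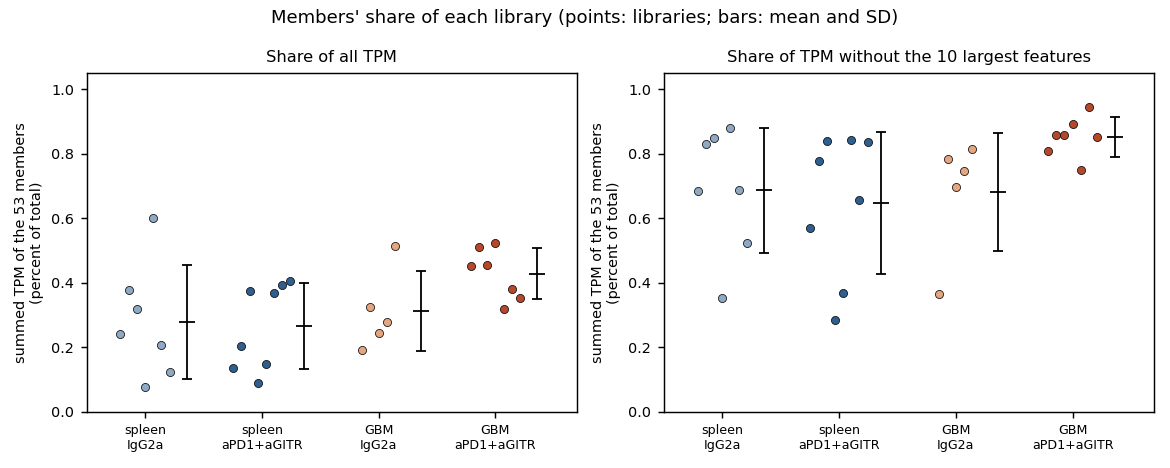
Summed TPM of the 53 genes as a percent of each library (y axis) by group (x axis), for all TPM (left) and without the 10 features of highest mean TPM (right). Points are libraries and bars are mean ± SD. Treated GBM spans 0.319 to 0.524% on the left and 0.7497 to 0.945% on the right, overlapping with the other groups.

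Expression was dominated by a few members. Mean TPM over all 27 libraries exceeded 100 for 8 genes and was under 5 for 5 genes, and 35 genes were above 0 in every library. *Hnrnpk*, which binds C-rich RNA and DNA, had the highest mean (387 TPM, from 73.6 to 826), ranked among the 5 highest members in all 27 libraries and was the highest in 16. It was followed by *Hnrnpf*, which binds G-runs (312 TPM), *Srsf11* (308 TPM), *Hnrnpa2b1*, a packaging and trafficking hnRNP (255 TPM), *Hnrnpa1* (149 TPM) and *Sf3b1*, the largest SF3B subunit (146 TPM). *Hnrnpk* exceeded *Hnrnpf* in 20 of 27 libraries, *Srsf11* exceeded *Hnrnpa2b1* in 19 and *Hnrnpa2b1* exceeded *Hnrnpa1* in 22. The other neighbors in this order were closer, since *Hnrnpf* exceeded *Srsf11* in 14 libraries and *Hnrnpa1*, although of the higher mean, exceeded *Sf3b1* in 9. At the low end, *Hnrnpa0*, *Hnrnpul2*, *Snrpn*, *Srsf12* and *Snrpert* had means of 1.33, 1.03, 0.477, 0.383 and 0.155 TPM.

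Genes of the same complex were not expressed at the same level. SF3B and SF3A proteins are present together in the U2 snRNP, but *Sf3b1* exceeded *Sf3b5* and *Sf3a1* in all 27 libraries, with median log2(TPM + 1) differences of 3.35 and 2.83. Of the near-identical Sm proteins, *Snrpb*, the general form, exceeded *Snrpn*, the imprinted form typical of neurons, in all 27 libraries, and *Snrpn* had a median of 0 TPM in each group. *Hnrnpul1* likewise exceeded its paralog *Hnrnpul2* in all 27. *Hnrnph1* exceeded its X-linked paralog *Hnrnph2* in 24 of 27 libraries, with both control spleen and treated GBM showing this order in 7 of 7. Reads shared between such paralogs, or with processed copies such as those known for *Hnrnpa1*, could have been split between them, so single values of these genes are uncertain.

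The spread between libraries of a group was wide and differed by gene. On the log2(TPM + 1) scale the pooled within-group SD was 0.79 for *Hnrnpk*, 0.81 for *Srsf11* and 0.86 for *Srsf5*, an SR protein, compared with 2.09 for *Srsf6* and 2.05 for *Srsf1*, both SR proteins. *Srsf6* illustrates the range. It was at 0 and 0.49 TPM in treated spleen libraries 72_b and 72_c and at 0.97 TPM in the feature-poor control GBM library, but between 8.38 and 183.5 TPM in the other 24 libraries. SR genes held a median of 23.2% of the members' TPM, the hnRNPs outside the A/B, D and F/H groups 21.8% and the A/B and D group 17.3%. Sm genes held 8.65% and the U1 and U2 protein genes 3.50%.

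**Figure D2:**
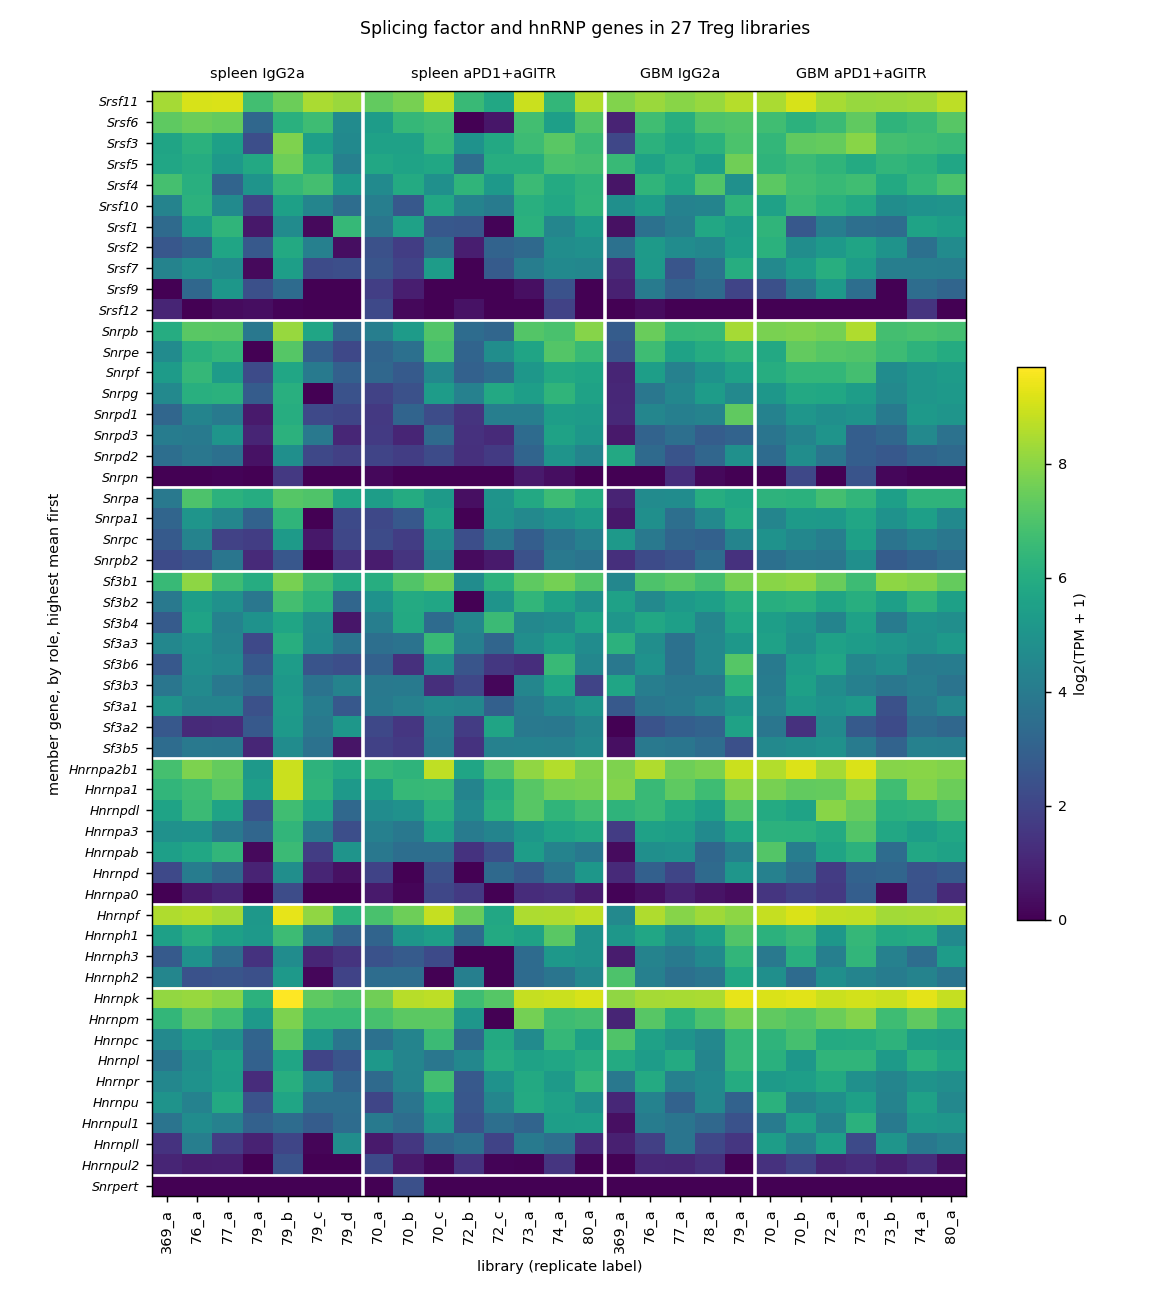
Expression of the 53 genes (rows, by role, highest mean first) in the 27 libraries (columns, by group) as log2(TPM + 1). *Hnrnpk*, *Hnrnpf* and *Srsf11* are bright in most columns, *Snrpn*, *Srsf12* and *Snrpert* are dark in most, and the feature-poor library (the first GBM IgG2a column) is dark for many SR, Sm and U1 and U2 genes.

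The first comparison asked how αPD1 + αGITR treatment altered these genes in GBM Treg cells. A total of 48 members had a mean above 10 TPM in at least 1 of the groups and were tested, and 42 had a log2 fold change above 0 and 6 below 0 in treated GBM. Among them 13, or 27.1%, were higher at an unadjusted p under 0.05 and more than 2-fold, and none was lower. Over all 7848 genes tested, 16.8% were called higher and 4.87% lower by the same rule, and 71.6% had a fold change above 0. The median log2 fold change was 0.52 for the members and 0.62 for all genes tested, so the median of the members was no higher than that of the table as a whole. Of the 13 called members, *Hnrnpll*, *Hnrnpul1*, *Sf3b5* and *Snrpb2* averaged above 10 TPM in treated GBM only, so they entered the test through the group where they were high. With a mean above 10 TPM required in both groups 40 members were tested and 9 were called higher (22.5%), against 14.2% of all genes. With TMM-type scaling factors, which align the libraries on the bulk of their genes, the median of the members was -0.01. No member had an adjusted p under 0.05, the lowest being 0.110 (limma with Benjamini-Hochberg adjustment over all genes tested). The same held for all 7848 genes, where the lowest was 0.0947 (limma). No member separated the groups completely, and 172 of the 7848 genes tested did. Since these are bulk samples, fewer cells of a type and less RNA per cell cannot be told apart.

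Markers of cycling cells and of T cells also had higher averages in treated GBM, without a test. The summed TPM of 6 markers of cycling cells was 83.3 to 226 (median 112.00) in control GBM and 91.5 to 359.7 (median 220.1) in treated GBM, so the ranges overlapped. Mean levels in control and treated GBM were 6.31 and 20.95 TPM for *Mki67*, 15.5 and 43.4 TPM for *Top2a*, 12.6 and 40.4 TPM for *Cdk1* and 10.7 and 19.8 TPM for *Ccnb1*. They were 42.6 and 64.9 TPM for *Pcna* and 58.2 and 60.2 TPM for *Mcm5*. The summed T cell and Treg markers were at 1671 to 3064 TPM (median 1824) in control and 2130 to 3881 TPM (median 2801) in treated GBM. Of these 10 markers *Il2ra*, which encodes CD25, had means of 172.8 and 172.5 TPM, and the other 9 had higher means in treated GBM. The part of these markers in the result was not tested.

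The called members came from every role. They were *Srsf3* and *Srsf4* of the SR proteins, *Snrpf* and *Snrpg* of the Sm ring, *Snrpa* and *Snrpb2* of U1 and U2, *Sf3b5* of SF3B, *Hnrnpf* of the F/H group, *Hnrnpab* and *Hnrnpa3* of the A/B and D group, and *Hnrnpll*, *Hnrnpul1* and *Hnrnpu* of the other hnRNPs. The role medians of the log2 fold change ran from 0.34 for the 9 SF3A and SF3B genes and for the 6 tested A/B and D genes to 1.35 for the 4 U1 and U2 protein genes, with 1.19 for the 7 tested Sm genes. The 6 members with a log2 fold change below 0 were *Hnrnph2* (-0.65), *Snrpd2* (-0.54), an Sm protein, the SF3B subunits *Sf3b3* (-0.44), *Sf3b4* (-0.43) and *Sf3b6* (-0.19), and *Srsf5* (-0.06), all as log2 fold changes. None of these 6 passed the threshold.

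*Hnrnpll*, which directs the skipping of CD45 variable exons in activated T cells, had the highest log2 fold change among the tested members. Its level in control GBM was 0.80, 1.87, 2.57, 3.18 and 12.5 TPM. In treated GBM it ranged from 3.55 to 42.97 TPM (median 18.1), and 6 of 7 treated libraries were above every control library. The exception was library 73_a, at 3.55 TPM, one of the libraries with high macrophage and microglia markers. The log2 fold change was 2.35 ± 0.71 (standard error), with an unadjusted limma p of 0.00358, an adjusted p of 0.110 and an exact two-sided permutation p of 0.00884. The call was kept with each of the 12 libraries left out in turn, where the log2 fold change ran from 2.06 to 2.78, and under all 11 other settings in which the gene was tested. It averaged 4.18 TPM in control and 24.1 TPM in treated GBM, so it passed the filter through treated GBM alone and was not tested where both groups had to average above 10 TPM. Its adjusted limma p over all of these ran from 0.0541 to 0.416.

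Its paralog *Hnrnpl*, which binds CA-rich RNA and acts on the same exons, was at 20.2, 39.9, 59.3, 60.3 and 86.3 TPM in control GBM and at 33.6 to 80.4 TPM (median 69.9) in treated GBM, so the ranges overlapped. The log2 fold change was 0.25 ± 0.49 (adjusted p = 0.759, limma), and -0.44 with TMM-type factors. *Hnrnpl* was the higher of the pair in 26 of 27 libraries. The log2 excess of *Hnrnpl* over *Hnrnpll* within a library had a median of 3.52 in control GBM and 0.89 in treated GBM, where it ranged from 2.19 to 5.07 and from 0.25 to 4.16. This comparison of the pair was chosen after the values had been seen and is given without a test.

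*Hnrnpul1*, an hnRNP U-like protein also linked to the DNA damage response, was at 0.32, 4.47, 8.59, 12.6 and 15.8 TPM in control GBM. In treated GBM it ranged from 14.3 to 71.4 TPM (median 33.1), with 5 of 7 libraries above every control library. The log2 fold change was 2.12 ± 0.69 (adjusted p = 0.122, limma; exact permutation p = 0.00505). With averages of 8.36 TPM in control and 33.7 TPM in treated GBM, the gene passed the filter through treated GBM alone. It was not tested where both groups had to average above 10 TPM. *Hnrnpu*, a scaffold protein of chromatin and nascent RNA, was at 1.11, 7.31, 7.35, 18.6 and 21.8 TPM in control GBM and at 19.1 to 72.96 TPM (median 27.4) in treated GBM. Here too 5 of 7 treated libraries were above every control library, and the log2 fold change was 1.84 ± 0.65 (adjusted p = 0.142, limma; exact permutation p = 0.00505). Both calls were kept with each library left out in turn. They were lost without the 3 libraries that stand apart (the feature-poor library, 79_a of control and 73_a of treated GBM), where the log2 fold changes were 1.00 and 1.01.

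*Snrpa*, a U1 snRNP protein that binds a stem-loop of U1 snRNA, was at 0.95, 24.6, 25.4, 53.8 and 64.3 TPM in control GBM. In treated GBM it ranged from 43.9 to 109 TPM (median 77.9), and 6 of 7 libraries exceeded every control library. The log2 fold change was 1.81 ± 0.69 (adjusted p = 0.161, limma; exact permutation p = 0.00884), and was 0.95 and below the threshold without the feature-poor library. *Hnrnpab*, which binds AU-rich RNA, was at 0.23, 8.39, 17.4, 27.3 and 30.02 TPM in control GBM and at 9.73 to 136 TPM (median 49.9) in treated GBM. Its log2 fold change of 1.91 ± 0.80 (adjusted p = 0.182, limma) had an exact permutation p of 0.0530. Its call was lost without the feature-poor library (1.11) or treated library 70_a (1.64).

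The calls of *Srsf3*, a small SR protein, and *Srsf4* depended on single libraries. *Srsf3* was at 3.23, 54.3, 71.98, 73.2 and 123 TPM in control GBM, the lowest value being that of the feature-poor library, and at 85.2 to 252 TPM in treated GBM. *Srsf4* was at 0.48, 28.1, 53.4, 80.2 and 133 TPM in control GBM, again lowest in that library, and at 57.97 to 149 TPM in treated GBM. The log2 fold changes of 1.58 ± 0.66 and 1.71 ± 0.80 became 0.74 and 0.63 without it, and both calls were lost. The call of *Srsf3* was also lost without treated library 73_a. That of *Srsf4* was lost in 8 of the 12 fits that left out a library, namely those without the feature-poor library, control 79_a or treated 70_a, 70_b, 72_a, 73_a, 74_a or 80_a. Without the feature-poor library 4 members were called in all, namely *Hnrnpll*, *Hnrnpul1*, *Hnrnpu* and *Snrpb2*, a U2 snRNP protein. That is 8.33% of the members, below the 10.9% of all genes called higher in this fit.

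**Figure D3:**
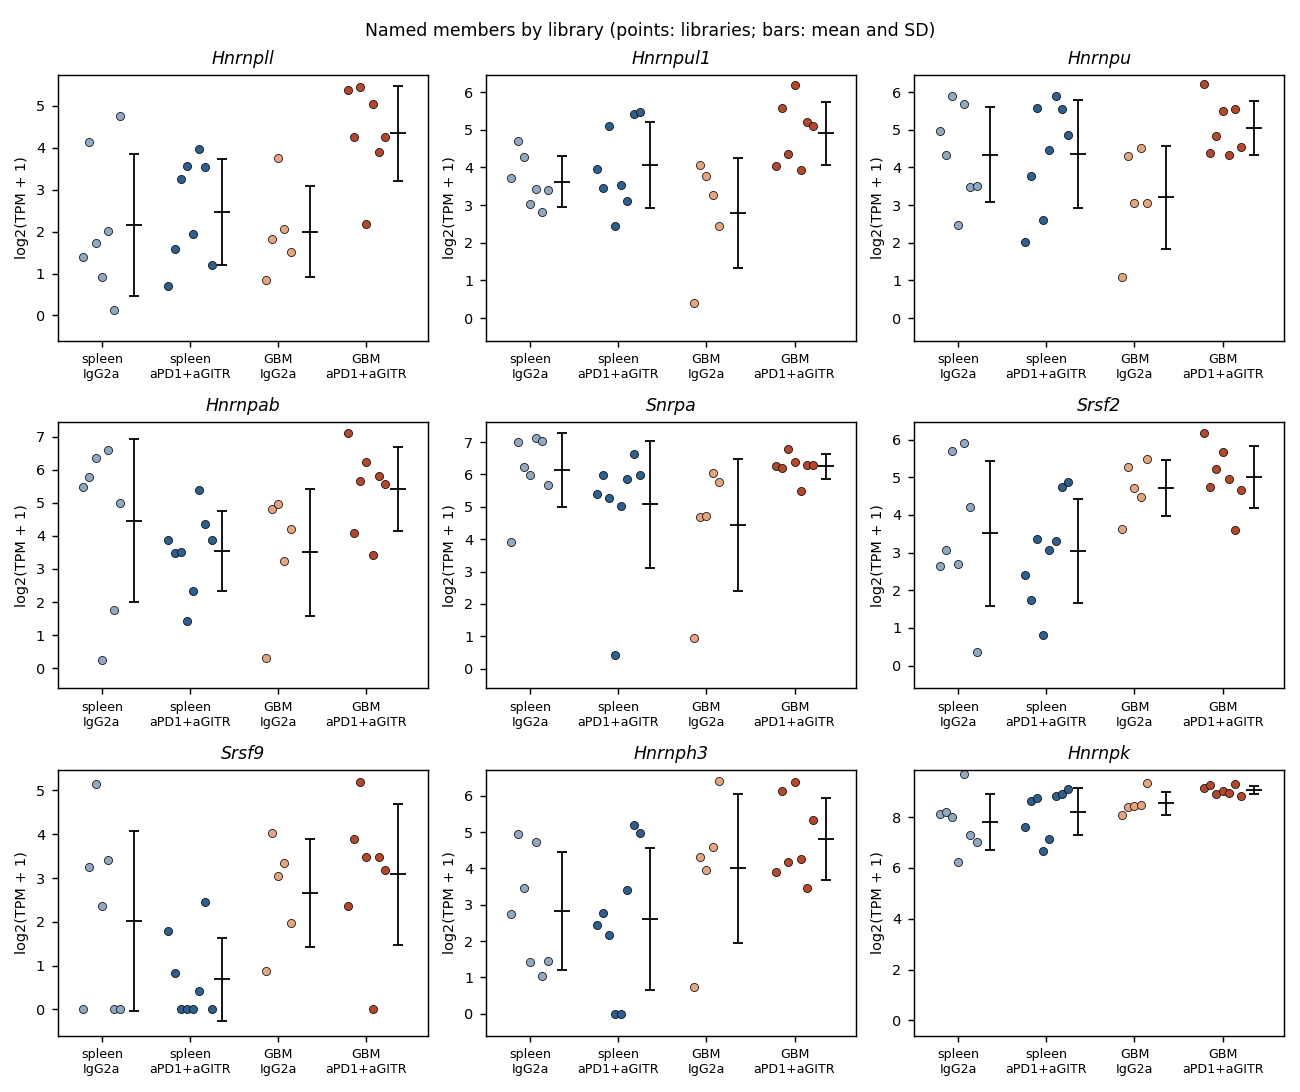
Expression of 9 members as log2(TPM + 1) (y axes) by group (x axes). Points are libraries and bars are mean ± SD. For *Hnrnpll* 6 of 7 treated GBM libraries lie above all 5 control GBM libraries, and the lowest control GBM point of *Hnrnpul1*, *Hnrnpu* and *Snrpa* is the feature-poor library.

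The calls also depended on how the libraries were scaled. The median of all genes tested moved from 0.62 to 0.05 with TMM-type factors and to 0.13 after quantile normalization. Under these scalings 4 members (8.33%, against 6.10% of all genes) and 3 members (6.25%, against 6.64%) were called higher, and among all called genes the share that was higher went from 77.5% to 43.9 and 46.4%. *Hnrnpll*, *Hnrnpul1* and *Snrpa* were called under both, with TMM-type log2 fold changes of 1.80, 1.66 and 1.26. With the libraries scaled to the summed TPM of the members themselves, *Hnrnpll*, *Hnrnpul1*, *Hnrnpu* and *Snrpa* were called. That is 8.89% of the members, against 5.94% of all genes. Without the 3 libraries that stand apart, *Hnrnpll* and *Snrpa* were called, which is 4.26% of members against 11.6% of all genes.

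**Figure D4:**
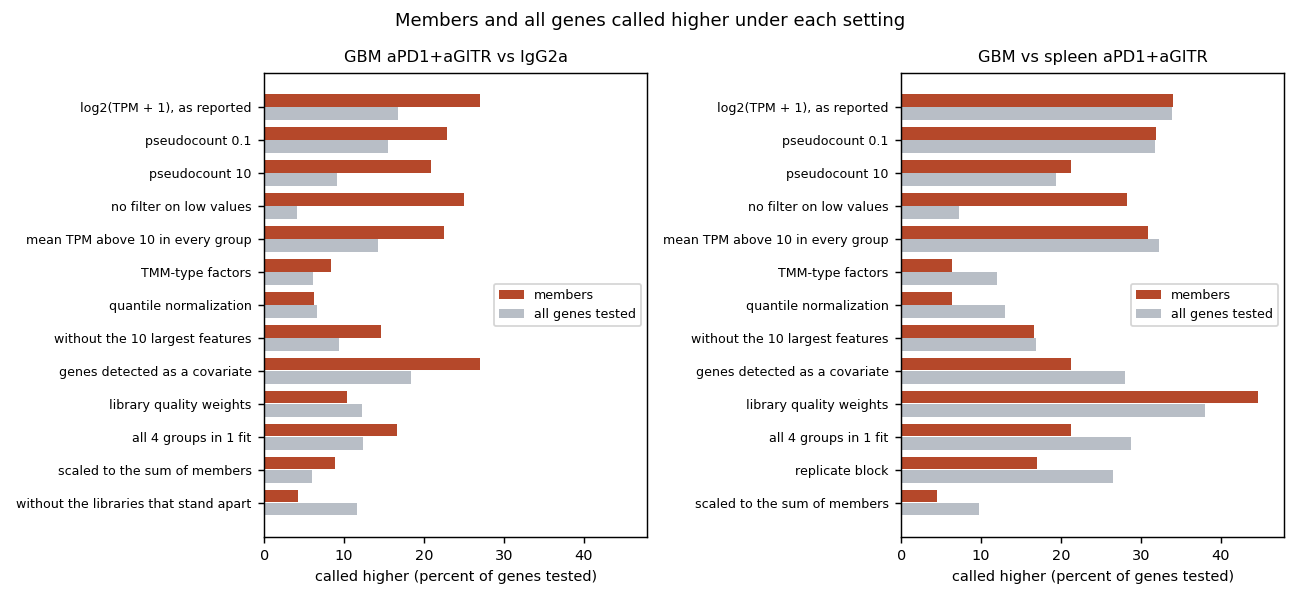
Percent of genes tested that were called higher (x axis) among the members (red) and among all genes tested (grey) under each setting (y axis), for treated against control GBM (left) and treated GBM against treated spleen (right). On the left the members go from 27.1% to 8.33% with TMM-type factors and 6.25% after quantile normalization, where all genes are at 6.10 and 6.64%.

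Promoters of 4 members described here are shown because each was called in a comparison between groups, although *Snrpa*, *Hnrnpul1* and *Hnrnpu* passed no adjusted threshold. Windows of 300 bases, from 250 before to 50 after the annotated start, were found in the RefSeq promoter table (build GRCm38.p6) for 46 of the 53 members, 63 windows in all. A few short words were searched on both strands, chosen after windows had been looked at. The word CGGAAG, the core of ETS-family motifs, was in 31 of 63 member windows (49.2%) and in 16.9% of all 32851 windows. The word GGGCGG, the GC box bound by Sp1, was in 68.3% of member windows and 35.7% of all. CCAAT was in 44.4 and 37.4%, the E-box CACGTG in 11.1 and 7.15%, and TATAAA in 11.1 and 13.6%. The median GC content was 61.0% in member windows and 52.7% in all, and these shares were not adjusted for it. The following windows are of *Snrpa* and *Srsf9*, which hold CGGAAG, and of *Hnrnpul1* and *Hnrnpu*, which do not. Each is written 5′ to 3′ on the strand of the gene, and capitals mark CGGAAG or GGGCGG on either strand, where the first reads CTTCCG and the second CCGCCC if on the opposite strand.
Snrpa, chr7:27196222-27196521, minus strand: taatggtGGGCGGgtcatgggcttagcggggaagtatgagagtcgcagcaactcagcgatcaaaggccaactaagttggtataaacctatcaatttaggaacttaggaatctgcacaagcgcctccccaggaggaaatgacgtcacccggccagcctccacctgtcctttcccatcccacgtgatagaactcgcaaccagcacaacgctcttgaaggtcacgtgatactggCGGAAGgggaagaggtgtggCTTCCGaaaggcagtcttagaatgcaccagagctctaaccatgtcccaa
Srsf9, chr5:115326927-115327226, plus strand: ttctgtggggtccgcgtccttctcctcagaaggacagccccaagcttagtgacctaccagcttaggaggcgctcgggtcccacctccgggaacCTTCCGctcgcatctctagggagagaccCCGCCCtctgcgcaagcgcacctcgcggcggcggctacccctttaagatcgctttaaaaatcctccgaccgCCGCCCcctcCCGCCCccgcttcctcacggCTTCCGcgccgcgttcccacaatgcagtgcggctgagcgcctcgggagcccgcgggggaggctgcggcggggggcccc
Hnrnpul1, chr7:25754710-25755009, minus strand: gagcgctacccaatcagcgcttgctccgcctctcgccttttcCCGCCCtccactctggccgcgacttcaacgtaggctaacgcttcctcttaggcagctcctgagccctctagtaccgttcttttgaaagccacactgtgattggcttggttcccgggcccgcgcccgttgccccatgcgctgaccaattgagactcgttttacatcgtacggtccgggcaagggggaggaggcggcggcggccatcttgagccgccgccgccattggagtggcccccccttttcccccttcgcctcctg
Hnrnpu, chr1:178337766-178338065, minus strand: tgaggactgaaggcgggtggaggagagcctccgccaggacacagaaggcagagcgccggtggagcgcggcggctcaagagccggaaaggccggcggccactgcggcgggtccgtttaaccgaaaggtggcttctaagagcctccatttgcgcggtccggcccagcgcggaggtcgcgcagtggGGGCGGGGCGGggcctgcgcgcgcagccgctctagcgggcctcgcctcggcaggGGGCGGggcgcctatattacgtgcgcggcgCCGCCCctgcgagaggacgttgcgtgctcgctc
The *Snrpa* window has 2 matches to CGGAAG, and another annotated start of the gene has a window without one. The *Srsf9* window has 2 matches to CGGAAG and 3 to GGGCGG. *Hnrnpu* has 4 matches to GGGCGG, and *Hnrnpul1* has 1 match to GGGCGG and 4 to CCAAT. A match describes the letters only. *Hnrnpll* had no window in the table.

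In splenic Treg cells the same treatment was followed by no call among the members. Of 43 members tested, 25 had a log2 fold change above 0 and 18 below 0 in treated spleen, and 0 passed the threshold (limma), also at an unadjusted p under 0.05 alone. Over all 6634 genes tested 1.49% were called higher and 1.04% lower, and 58.1% had a fold change above 0. The median log2 fold change was 0.075 for members and 0.15 for all genes, and -0.13 for members with TMM-type factors. The highest log2 fold changes were those of *Hnrnpl* (1.26 ± 0.68), *Snrpe* (0.88 ± 0.93), an Sm protein, and *Sf3b4* (0.82 ± 0.75). *Hnrnpl* was at 2.93 to 51.00 TPM (median 12.99) in control and 13.5 to 64.05 TPM (median 41.2) in treated spleen, with 3 of 8 treated libraries above every control library (unadjusted limma p = 0.0764, exact permutation p = 0.0597). The lowest were those of *Srsf6* (-1.34 ± 0.98), *Sf3b3* (-1.18 ± 0.77), *Snrpa* (-1.07 ± 0.78) and *Hnrnpab* (-0.92 ± 0.87). None of these passed the threshold, and the lowest adjusted p of any member was 1.00 (limma). *Hnrnpll* stayed at or below 10 TPM on average in both spleen groups and was not tested there, with 0.10 to 26.02 TPM (median 2.31) in control and 0.62 to 14.6 TPM (median 5.68) in treated spleen.

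**Figure D5:**
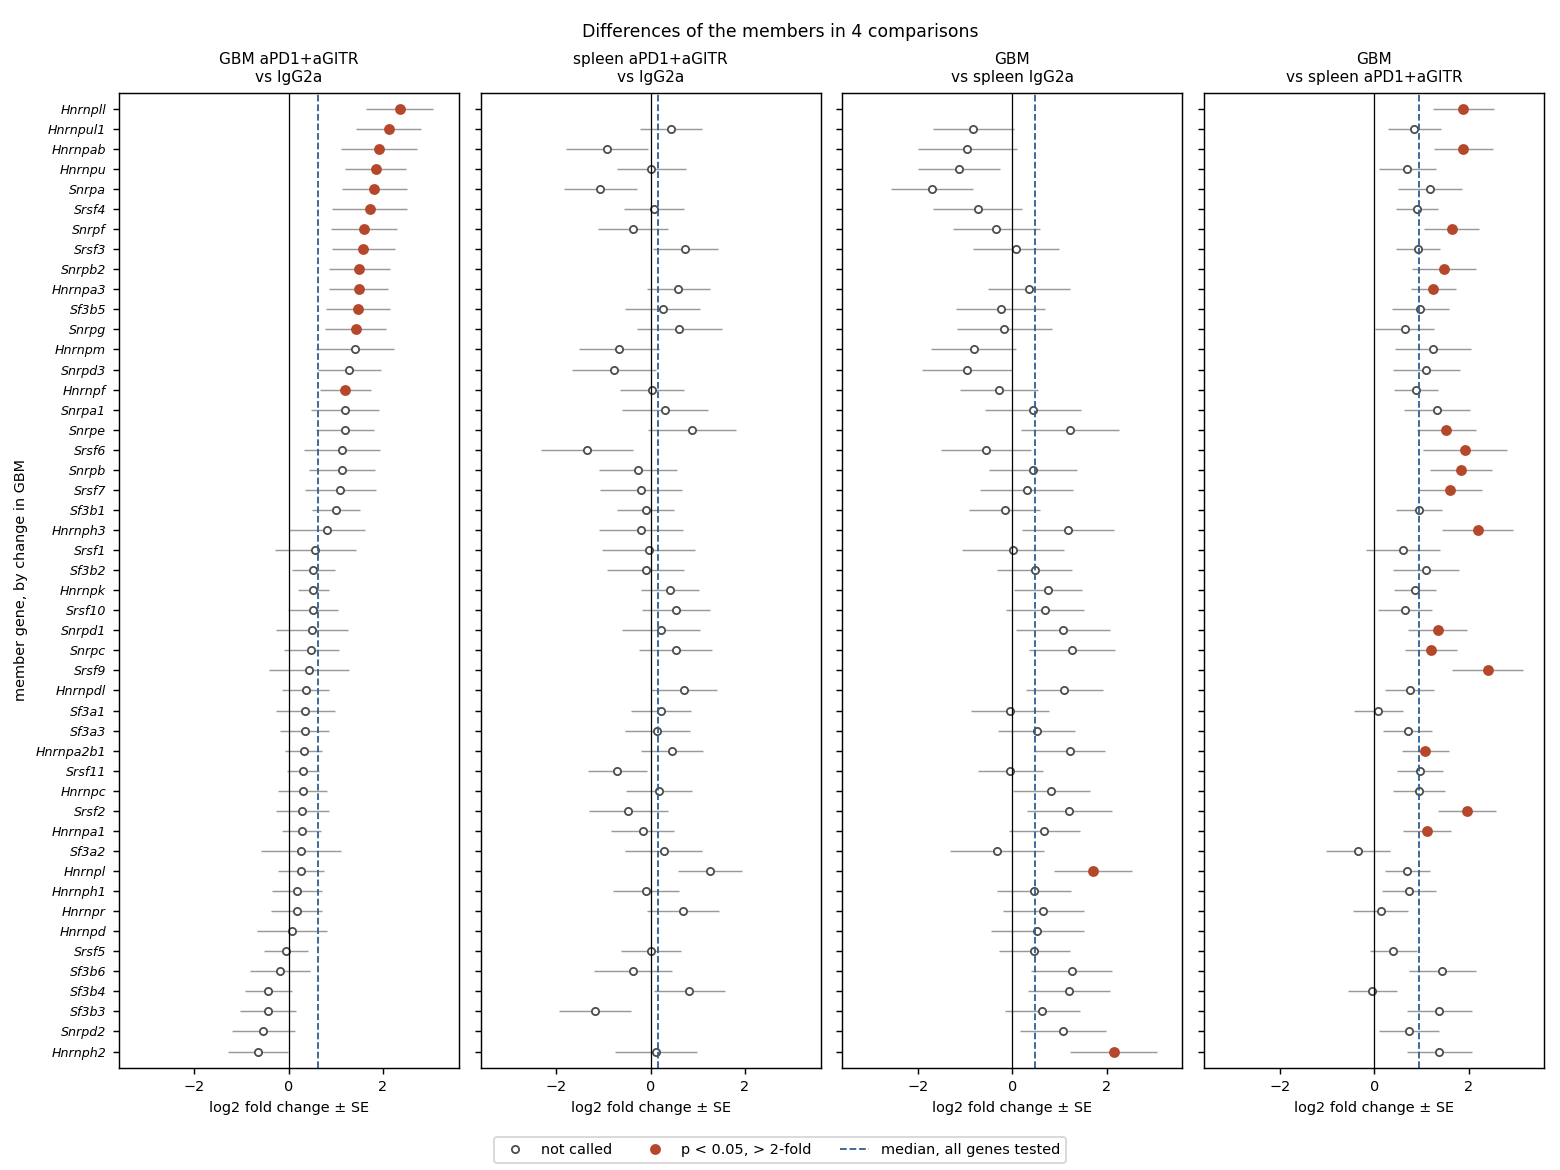
Log2 fold change ± standard error (x axes) of the tested members (rows, ordered by the change in GBM) in 4 comparisons. Filled red points pass an unadjusted p under 0.05 and 2-fold, open points do not, and the dashed line is the median of all genes tested. The filled points number 13, 0, 2 and 16 from left to right, and all lie on the higher side.

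Whether treatment acted differently in tumor and spleen was tested with an interaction term in a fit to all 4 groups. Of 48 members tested, 2 had an interaction above 2-fold with an unadjusted p under 0.05, both toward a larger rise in GBM. These were *Snrpa* (2.88 ± 1.11, unadjusted p = 0.0134, adjusted p = 0.325, limma) and *Hnrnpab* (2.84 ± 1.26, unadjusted p = 0.0298, adjusted p = 0.367, limma). Among all 8687 genes, 6.80% were called in this direction and 5.35% in the other, and the 2 of 48 members come to 4.17%. Both genes had lower means in treated than in control spleen and higher means in treated than in control GBM. *Snrpa* averaged 85.3 ± 47.6 (SD, n = 7) and 48.9 ± 28.6 TPM (n = 8) in control and treated spleen, and 33.8 ± 25.3 (n = 5) and 77.2 ± 19.2 TPM (n = 7) in control and treated GBM. *Hnrnpab* averaged 44.01 ± 36.5 and 14.2 ± 12.1 TPM in the spleen groups and 16.7 ± 12.6 and 55.4 ± 41.9 TPM in the GBM groups. Neither was called without the feature-poor library or without the 3 libraries that stand apart. *Snrpa* was also not called with library quality weights, and *Hnrnpab* was not called with a pseudocount of 0.1, with scaling to the members' sum, or without control spleen 77_a or 79_b or treated GBM 70_a. Without control spleen library 79_a 7 members were called, all toward a larger rise in GBM (14.6%, against 9.71% of all genes). *Hnrnpll* had an interaction of 2.04 ± 1.07 and was not called.

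The second question was how Treg cells of the tumor differed from those of the spleen. After IgG2a, 45 members were tested, 29 with a log2 fold change above 0 and 16 below 0 in GBM, and 2 were called, both higher (4.44%). Over all 7380 genes 7.63% were called higher and 2.30% lower, and 66.1% had a fold change above 0. The median log2 fold change was 0.46 for members and 0.48 for all genes. The called genes were *Hnrnph2* (2.14 ± 0.92, adjusted p = 0.419, limma; exact permutation p = 0.0455) and *Hnrnpl* (1.70 ± 0.83, adjusted p = 0.499, limma; exact permutation p = 0.0455). *Hnrnph2* was at 11.03, 12.8, 17.5, 55.7 and 125 TPM in GBM and at 0.12 to 36.1 TPM (median 4.43) in spleen. Its 2 highest GBM values are those of the feature-poor library and of 79_a, and without either of them, or without control spleen library 79_c, it was not called. *Hnrnpl* was at 20.2, 39.9, 59.3, 60.3 and 86.3 TPM in GBM and at 2.93 to 51.00 TPM (median 12.99) in spleen, and lost its call in 8 of the 12 fits that left out a library. The lowest fold changes were those of *Snrpa* (-1.71 ± 0.86, adjusted p = 0.519, limma), *Hnrnpu* (-1.13 ± 0.87), *Snrpd3* (-0.97 ± 0.96), an Sm protein, and *Hnrnpab* (-0.96 ± 1.04), none of them called. With TMM-type factors *Snrpa* was called lower (-2.12). No member was called without the feature-poor library and 79_a together, where 7.08% of all genes were called higher.

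After αPD1 + αGITR the difference between the tissues covered more of the table. Of 47 members tested, 45 had a log2 fold change above 0 in GBM and 2 below 0, and 16 (34.0%) were called, all higher. The share called higher is close to that of the table as a whole, where 33.9% of 7506 genes were called higher. The members had relatively fewer falls than the table, where 6.31% were called lower and 77.6% had a fold change above 0. The median log2 fold change was 1.08 for members and 0.95 for all genes, and 0.26 and 0.22 with TMM-type factors. Called members were *Srsf2*, *Srsf6*, *Srsf7* and *Srsf9* of the SR proteins, *Snrpb*, *Snrpd1*, *Snrpe* and *Snrpf* of the Sm ring, *Snrpb2* and *Snrpc* of U2 and U1, *Hnrnpa1*, *Hnrnpa2b1*, *Hnrnpa3* and *Hnrnpab*, *Hnrnph3* and *Hnrnpll*. Of the 9 SF3A and SF3B genes none was called, with log2 fold changes from -0.35 for *Sf3a2* to 1.44 for *Sf3b6*. Markers of other kinds had other levels in these groups as well, without a test. The summed T cell and Treg markers were at 233.1 to 2331 TPM (median 793.1) in treated spleen and 2130 to 3881 TPM (median 2801) in treated GBM, and the summed cycling markers had medians of 91.9 and 220.1 TPM. *Alas2*, the erythroid marker in the table, averaged 74.98 TPM in treated spleen and 0.94 TPM in treated GBM. After IgG2a the medians in spleen and GBM were 832 and 1824 TPM for the T cell and Treg markers and 48.2 and 112.00 TPM for the cycling markers, and *Alas2* averaged 15.4 and 0.128 TPM. The part of these markers in either tissue comparison was not tested.

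In this comparison 5 members passed an adjusted p of 0.05 (limma, Benjamini-Hochberg), which is 5 of 47 against 17.5% of all genes tested. *Srsf9* and *Hnrnpll* averaged above 10 TPM in treated GBM only and so entered the test through the group where they were high. With a mean above 10 TPM required in both groups, 13 members were called (31.0%, against 32.3% of all genes) and *Srsf2* alone passed the adjusted threshold (limma). *Srsf9*, an SR protein of low abundance, was at 0 in 4 of 8 treated spleen libraries, and the other 4 held 0.33, 0.78, 2.45 and 4.48 TPM. In treated GBM it was at 0 in library 73_b and at 4.13 to 35.8 TPM in the other 6. The log2 fold change was 2.40 ± 0.75 (adjusted p = 0.0339, limma). *Hnrnph3*, of the F/H group, was at 0 to 35.4 TPM (median 5.15) in treated spleen and at 10.04 to 81.96 TPM (median 18.2) in treated GBM, with a log2 fold change of 2.19 ± 0.76 (adjusted p = 0.0479, limma). *Srsf2*, also known as SC35 and a marker of nuclear speckles, was at 0.76 to 28.3 TPM (median 8.14) in treated spleen and at 11.03 to 71.4 TPM (median 30.1) in treated GBM, with a log2 fold change of 1.97 ± 0.62 (adjusted p = 0.0339, limma). For *Hnrnpab* (1.88 ± 0.63) and *Hnrnpll* (1.88 ± 0.64) the adjusted p-values were 0.0424 and 0.0454 (limma). The ranges of the tissues overlapped for all 5, as they did for all but 225 of the 7506 genes tested.

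The adjusted calls depended on single libraries and settings. No member had an adjusted p under 0.05 (limma) without treated GBM 70_a or 72_a, and 1 member had without treated spleen 70_a, 70_b, 72_b or 72_c or treated GBM 70_b, 73_a or 80_a. Over the 15 fits that left out a library the number ran from 0 to 10, and that of all genes from 591 to 2279. *Srsf2* passed in 8 of these fits, *Srsf9* in 7, *Hnrnpab* in 6, *Hnrnpll* in 5 and *Hnrnph3* in 4. The number was also 0 under 8 of the 12 other settings, namely a pseudocount of 0.1, no filter on low values, TMM-type factors, quantile normalization, the total without the 10 largest features, the number of detected features as a covariate, the replicate block and scaling to the members' sum. It was 8 with a pseudocount of 10 and 11 with library quality weights. All genes that passed numbered 1310 in the main fit, and 1556 and 2123 under these 2 settings. They numbered 256 to 1094 under the 8 settings without a member. By the unadjusted 2-fold rule all 5 were called in each fit that left out a library and tested them. *Srsf2* was called under all 12 other settings and its TMM-type log2 fold change was 1.26. *Hnrnpk* was at 101 to 546 TPM (median 412) in treated spleen and 459 to 626 TPM (median 526) in treated GBM, a log2 fold change of 0.86 ± 0.44 (adjusted p = 0.139, limma; exact permutation p = 0.0205). *Sf3b1* differed by 0.94 ± 0.48 (adjusted p = 0.142, limma), with 25.1 to 201 TPM in treated spleen and 98.2 to 268 TPM in treated GBM. Treated GBM libraries were shared with the treatment comparison and treated spleen libraries with the splenic one, so the comparisons are not independent.

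The other genes of the splicing pathway were taken from a list of 107, all of which are in the table. In GBM 94 were tested, and 20 were called higher (21.3%, against 16.8% of all genes) and 0 lower after treatment, with a median log2 fold change of 0.91. The highest fold changes were those of *Rbm17* (2.28, adjusted p = 0.195, limma), *Raly*, an hnRNP C relative (2.26, adjusted p = 0.101), and *Xab2* (2.22, adjusted p = 0.151). All 3 were lowest in the feature-poor library and control 79_a. *Rbm17* was at 0.20, 0.85, 59.8, 86.2 and 139 TPM in control GBM, the first pair being these libraries, and at 36.8 to 159.99 TPM in treated GBM, with 1 of 7 treated libraries above every control library (exact permutation p = 0.101). *Xab2* was at 0.10, 0.40, 21.7, 23.8 and 38.5 TPM in control GBM and at 28.7 to 53.5 TPM in treated GBM (exact permutation p = 0.0101). *Raly* was at 10.5, 38.5, 221, 228 and 273 TPM in control GBM and at 254 to 779 TPM in treated GBM, with 5 of 7 treated libraries above every control library (exact permutation p = 0.00379), and was called with each library left out. In spleen 3 of 86 were called (3.49%, against 1.49% of all genes), namely the helicase genes *Dhx15* (1.76) and *Dhx8* (1.59) and *Prpf6* of the tri-snRNP (1.66), all higher, each with an adjusted p of 1.00 (limma). Between the tissues after IgG2a 84 were tested and 2 called higher (2.38%, below the 7.63% of all genes). *Snrnp27* (2.40) and *Magoh*, of the exon junction complex (2.38), were called higher and *Rbm17* (-2.15) lower in GBM, with adjusted p-values of 0.360 to 0.483 (limma). The 2 lowest GBM values of *Rbm17* and the 2 highest of *Magoh* are those of the feature-poor library and 79_a, and the exact permutation p was 0.160 and 0.125. After αPD1 + αGITR 28 of 92 were called higher in GBM (30.4%, below the 33.9% of all genes) and 0 lower, with *Isy1*, *U2af1* (2.03, adjusted p = 0.0566, limma) and *Ppih* (2.00, adjusted p = 0.0432) at the top.

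*Isy1*, a component of the activated spliceosome, had a higher fold change between the treated tissues than any member. It was at 0.13 to 21.6 TPM in treated spleen and at 82.1 to 222 TPM in treated GBM, so the groups did not overlap. Its mean in treated spleen was 9.27 TPM, so it passed the filter through treated GBM. The log2 fold change was 4.22 ± 0.64 (adjusted p = 0.000262, limma), against at most 2.40 among the members. It was called in this comparison with each of the 15 libraries left out, where the log2 fold change ran from 3.86 to 4.48, and was 3.54 with TMM-type factors. In control GBM it was at 2.32, 31.7, 39.5, 40.5 and 62.3 TPM, each below all 7 treated GBM libraries, with a log2 fold change of 2.18 ± 0.62 in that comparison (adjusted p = 0.0997, limma; exact permutation p = 0.00126, the smallest possible).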

How the data were processed

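Libraries of sorted Treg cells were made by Smart-Seq2, a method for small amounts of RNA. The authors aligned reads to mm10 (the submitters' processing notes name TopHat2 and bcl2fastq, without versions) and computed TPM with RSEM. The deposited values are TPM plus 1, so 1 was taken off each. Annotation, read depth and strand handling are not given in the sources used here, so no counting interval is given. Of 28 libraries described, 27 were used, since 1 column carries no name. Groups follow the labels, and the series' design text has each spleen or tumor sample come from a different mouse.

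log2(TPM + 1) was fitted with limma 3.58.1 in R 4.3.3 (lmFit, eBayes with trend) on the 2 groups compared, over all genes with a mean above 10 TPM in either, and over 4 groups for the interaction. A gene was called at an unadjusted two-sided p under 0.05 and over 2-fold. Adjusted p-values are Benjamini-Hochberg over all genes tested. Permutation tests were exact, with smallest possible p-values of 0.00126 (5 against 7) and 0.000155 (7 against 8). The fits were tested on simulated data. Members and gene lists were chosen with earlier results of these data known. Members were named with values by a rule: in each comparison the 6 highest and 4 lowest fold changes, every adjusted p under 0.05, the highest mean of each role, and *Hnrnpll*, *Snrpb* and *Snrpn*, of which only those that carry a result are described. *Srsf1*, *Srsf5*, *Srsf12*, *Sf3b5*, *Hnrnpa0*, *Hnrnpa1*, *Hnrnph1*, *Hnrnpul2* and the other called members fall outside this rule and were named after their values were seen.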

Additional observations from a re-analysis of the deposited data

Results flagged for a closer look

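In the log2(TPM + 1) values of the 30 named members above 5 TPM on average, 120 groups of values were searched for a library far from the rest of its group, and 8 were found. Chance alone gives about 1 in 20, so this number is near that rate. All 8 are low values, and 7 of them are those of the feature-poor control GBM library, which has the fewest features above 1 TPM. These 7 share a library and are not separate events. There the gap to the nearest library, as a share of the group's range, was 0.844 for *Hnrnpf* (22.5 TPM), 0.715 for *Sf3b1* (21.4 TPM), 0.733 for *Snrpa* (0.95 TPM), 0.755 for *Snrpd3* (0.60 TPM), 0.732 for *Snrpe* (4.84 TPM), 0.761 for *Srsf3* (3.23 TPM) and 0.839 for *Srsf6* (0.97 TPM). The eighth is *Snrpa* in treated spleen library 72_b, at 0.33 TPM, with a gap of 0.742.

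In the test of the interaction *Snrpa* and *Hnrnpab* passed the unadjusted 2-fold rule, with log2 values of 2.88 and 2.84 and unadjusted limma p-values of 0.0134 and 0.0298. They are 4.17% of the members tested, against 6.80% of all genes called in this direction. Neither passed the adjusted threshold, and neither was called without the feature-poor control GBM library, where the values were 2.01 and 2.04.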

How the results depend on the processing

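Members called in treated against control GBM numbered 13, and 4 with TMM-type factors, 3 after quantile normalization, 7 without the 10 largest features, 5 with library quality weights, 8 with all 4 groups in 1 fit, and 4 to 16 with a library left out. The shares of members and of all genes called higher were 27.1 and 16.8%, against 8.33 and 6.10% with TMM-type factors, 6.25 and 6.64% after quantile normalization, 14.6 and 9.42% without the 10 largest features, 10.4 and 12.3% with quality weights, and 8.33 and 10.9% without the feature-poor library. Members called were 4 without the feature-poor library, 7 without treated 70_a, 70_b or 72_a, and 8 without treated 73_a. With all 4 groups in 1 fit the shares were 16.7 and 12.4%. With a library left out they ran from 8.33 to 34.8% of members and from 10.9 to 20.9% of all genes. The excess of the members' median over that of all genes was -0.10, but 0.50 with no filter on low values and -0.15 to 0.30 with a library left out, the highest without control GBM 79_a. In spleen 0 were called (1.49% of all genes higher), 1 with all 4 groups in 1 fit (2.33%, against 2.47% of all genes) and 0 to 1 with a library left out. Between tissues after IgG2a 2 were called, 1 with a pseudocount of 0.1, 0 with quality weights and 0 to 3 with a library left out. All genes called higher were 7.63%, 7.02% and 12.9% in the first 3 of these, and 5.77 to 10.9% with a library left out. After αPD1 + αGITR 16 were called, 10 with a pseudocount of 10, 3 with TMM-type factors or quantile normalization, 8 without the largest features, 21 with quality weights (44.7% of members and 38.1% of all genes), 10 with the number of detected features as a covariate, 10 with all 4 groups in 1 fit and 10 to 23 with a library left out (10 without treated spleen 72_b or treated GBM 72_a). There the shares of members and of all genes were 34.0 and 33.9%, against 6.38 and 12.1% with TMM-type factors and 6.38 and 12.98% after quantile normalization. The members' median was 0.26 with TMM-type factors, and its excess was 1.02 with no filter, against 0.12. The interaction gave 2, 1 with a pseudocount of 0.1, 6 with quality weights and 0 to 7 with a library left out. For the first 3 of these the shares of members and of all genes were 4.17 and 6.80%, 2.08 and 6.22%, and 12.5 and 8.46%. With a library left out 3.32 to 9.71% of all genes were called in this direction. No named result changed sign while called.

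The next pair of settings was chosen after seeing the data. Scaled to the sum of the members, 4 were called in GBM, 1 in spleen, 2 between tissues after αPD1 + αGITR (median 0.22) and 1 for the interaction. The shares of members and of all genes called higher were 8.89 and 5.94%, 2.27 and 2.09%, 4.55 and 9.76%, and 2.22 and 3.08%, in that order. Without the 3 libraries that stand apart 2 were called in GBM (4.26%, against 11.6% of all genes), 0 between tissues after IgG2a (7.08% of all genes higher) and 0 for the interaction (1.71% of all genes).

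With the replicate block 1 member was called between tissues after IgG2a and 8 after αPD1 + αGITR, and 2 for the interaction. The shares of members and of all genes called higher were 2.22 and 6.21%, 17.0 and 26.5%, and 4.17 and 6.23%, in that order. Deviations of same-numbered samples correlated at -0.16 to 0.18, and 1 of 9 numbers correlated best with itself. With so wide a spread within groups, this check cannot decide whether same-numbered samples share a mouse. The cause of these changes was not tested. Read depth is unknown, which limits what low values can show.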
